A study of Mus musculus with 8 samples.

Results

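The mitochondrially encoded genes are the genes carried by the mitochondrial genome itself. They were taken as every gene whose symbol begins with mt-, which gave 37 genes, 13 protein-coding, 2 for ribosomal RNA (rRNA) and 22 for transfer RNA (tRNA). These 37 stand among 54446 entries in the files of colon cells and 55341 in the files of cultured cells, and all 37 were listed in each of the 8 files. The values are read counts per gene from RNA sequencing of mouse CD4+ T cells, in a series whose title concerns RORα and mTORC1 activity in T cell-mediated colitis. Rora encodes RORα, a transcription factor of the nuclear receptor family found in T helper 17 (Th17) cells. Control cells carried Rora_fl/fl alleles alone, and knockout cells were Cd4_cre Rora_fl/fl, in which Cre recombinase is driven by the T-lineage gene Cd4.

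Colon cells were the CD4+ T cells recovered from Tcrbd-/- hosts at 6 weeks after naive CD4+ T cells of 1 genotype had been transferred, with 2 control and 2 knockout libraries. These hosts lack T cells of their own but keep the other cell types of the colon. Cultured Th17 cells were grown from naive CD4+ T cells on plate-bound anti-CD3 and anti-CD28 for 4 days. The cytokines were TGF-β+IL-6 in what is called the TGF-β culture below, and IL-6+IL-1β+IL-23 in the IL-23 culture, with 1 control and 1 knockout library for each. Culture values are given in that order, control before knockout. All cells, controls included, were exposed to PMA and ionomycin for 2 hours before total RNA was extracted. The labels do not give the age of the animals or say whether a library pools several. Nor do they say how RNA was selected for the libraries (for poly(A) tails, or by removal of rRNA), which bears on every rRNA and tRNA value below.

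The libraries held 13176752 to 15922696 counts. Rora was lower in every knockout library than in its control, at 252 and 290 CPM (counts divided by a TMM-scaled library size) in the colon controls against 133 and 149 in the knockouts, 499 against 189 in the TGF-β culture, and 152 against 59.0 in the IL-23 culture. Summed on the same scale, which was set separately for colon and culture, 12 T cell markers were at 11369 and 11104 CPM in the colon controls, 8889 and 8720 in the colon knockouts and 6637 to 7373 in the cultures, with none of the 12 at 0. In the colon, RNA of other cell types moved with genotype. The sum of 12 epithelial markers was 52.3 and 49.6 CPM in the controls against 135 and 134 in the knockouts, and 8 of the 9 tested were higher. The sum of 9 B and plasma cell markers was 597 and 584 CPM against 2089 and 2272, and 6 of the 7 tested were higher. Macrophage markers (10 genes) summed to 54.0 and 50.8 CPM against 74.6 and 73.2 (5 of 8 tested higher) and fibroblast markers (8 genes) to 31.6 and 23.8 against 102 and 92.7 (7 of 8). Endothelial markers (6 genes) overlapped in sum, at 105 and 99.4 CPM against 103 and 99.1, with 2 of 3 tested higher. Pecam1 alone made nearly all of that sum, at 104 and 98.5 CPM against 99.3 and 95.1. Vwf was at 0.325 and 0.642 CPM against 2.25 and 1.55, and Cdh5 at 0.244 and 0.143 against 1.02 and 1.61. Kdr and Tek, at no more than 0.409 CPM, were also higher in both knockouts, and Emcn overlapped. No marker of these lists was at 0 in all colon libraries. Neutrophil markers stayed below 1 CPM in sum, and the globins Hba-a1, Hba-a2, Hbb-bs and Hbb-bt, markers of erythroid cells, were at 0 in the colon. The part of these other cells in the mitochondrial values of the colon was not tested.

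Mitochondrial DNA is a small circular genome present in many copies per cell. Its protein-coding genes all specify subunits of oxidative phosphorylation complexes: the mt-Nd genes of complex I (NADH dehydrogenase), mt-Cytb of complex III, the mt-Co genes of complex IV (cytochrome c oxidase) and the mt-Atp genes of complex V (ATP synthase). mt-Rnr1 and mt-Rnr2 encode the small (12S) and large (16S) rRNA of the mitochondrial ribosome. Both strands are transcribed as long precursors by a dedicated polymerase, POLRMT, and most of the mature RNAs are released by cutting out the tRNAs that lie between the genes. All other subunits of the chain, and the factors that copy, transcribe and process the mitochondrial genome, are encoded in the nucleus. Activated T cells expand their mitochondria, so these RNAs are commonly followed in T cell differentiation.

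One stretch of the mitochondrial genome has a nearly identical copy in the nuclear genome, and its sequence is shown first because the counts of the genes in it differ so much from the rest. In build GRCm38 (mm10) with GENCODE M21, 7 pseudogenes on the minus strand of chromosome 1, within chr1:24611535-24616197 (4663 bases), follow the order of chrM:6390-11042. The stretch runs from the 3′ part of mt-Co1 through mt-Co2, mt-Atp8, mt-Atp6, mt-Co3, mt-Nd3 and mt-Nd4l to the 5′ part of mt-Nd4. Gm28661 matched 681 of the 684 bases of mt-Co2 with 0 differences, Gm10925 matched 678 of 681 bases of mt-Atp6 with 0, Gm28437 matched 783 of 784 of mt-Co3 with 0 and Gm10222 matched 294 of 297 of mt-Nd4l with 0. Gm28438 differed from mt-Nd3 at 1 of 345 aligned bases, Gm29216 from mt-Co1 at 1 of the 483 that aligned of 1545, and Gm28439 matched 876 of the 1378 bases of mt-Nd4 with 0 differences. Of mt-Atp8, which lies inside the stretch, the annotated pseudogenes cover only the 43 bases it shares with mt-Atp6, as part of Gm10925.

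The first 60 bases of mt-Co2 (chrM:7013-7072, plus strand) and of its copy (chr1:24615506-24615565, minus strand) show what a read from this region offers for telling the genes apart. The mt-Nd3 window (chrM:9459-9486) and its copy (chr1:24613092-24613119) hold the only difference of that pair, T3C counted from the first base of mt-Nd3. The mt-Co1 window (chrM:6390-6428) and its copy (chr1:24616150-24616188) hold A1066T counted from the first base of mt-Co1. Differences are in capitals, and all sequences are transcript sequences of GENCODE M21, 5′ to 3′.
mt-Co2: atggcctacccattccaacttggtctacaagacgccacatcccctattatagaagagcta
Gm28661: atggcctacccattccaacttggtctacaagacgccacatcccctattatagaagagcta
mt-Nd3: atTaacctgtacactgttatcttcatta
Gm28438: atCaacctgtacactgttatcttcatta
mt-Co1: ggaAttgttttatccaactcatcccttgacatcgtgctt
Gm29216: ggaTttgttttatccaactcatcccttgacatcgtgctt

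Other nuclear copies were more diverged. Gm13340 on chromosome 2 spans mt-Co1 at 97.6% identity with 37 differences, 5 of which (A462G, A468G, T501C, C519T and G534A, counted from the first base of mt-Co1) fall in the 81 bases chrM:5781-5861, aligned with chr2:22589114-22589194 on the minus strand. They are printed with the differences in capitals, to set beside the pairs above.
mt-Co1: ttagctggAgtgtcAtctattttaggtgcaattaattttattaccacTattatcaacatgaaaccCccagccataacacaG
Gm13340: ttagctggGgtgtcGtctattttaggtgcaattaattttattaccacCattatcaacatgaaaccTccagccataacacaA

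Some mitochondrial genes also share bases with each other. The whole of mt-Atp8 (chrM:7766-7969) is shown with the 43 bases it shares with mt-Atp6 in capitals, and the last 50 bases of mt-Nd4l (chrM:10124-10173) and first 50 of mt-Nd4 (chrM:10167-10216) with their shared 7 bases in capitals. Reads over shared bases can be split between genes or dropped, and the sources used here do not give how the authors treated reads matching more than 1 gene or place.
mt-Atp8: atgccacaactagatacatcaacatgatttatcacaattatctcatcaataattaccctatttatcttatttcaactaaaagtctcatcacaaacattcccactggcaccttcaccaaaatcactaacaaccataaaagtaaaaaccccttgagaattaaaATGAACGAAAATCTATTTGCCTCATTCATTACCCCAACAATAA
mt-Nd4l 3′ end: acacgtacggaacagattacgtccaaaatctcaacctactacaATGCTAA
mt-Nd4 5′ end: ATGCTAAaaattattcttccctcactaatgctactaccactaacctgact

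The 13 protein-coding genes fell into 2 sets by count. The 6 genes lying wholly in the copied stretch (mt-Co2, mt-Atp8, mt-Atp6, mt-Co3, mt-Nd3 and mt-Nd4l) never exceeded 328 counts in any library, and the other 7 never fell below 1749. mt-Co2, a core subunit of cytochrome c oxidase, had 29 and 24 counts in the colon controls, 40 and 23 in the colon knockouts, 235 and 196 in the TGF-β culture and 236 and 225 in the IL-23 culture. mt-Co1, the catalytic subunit of the same complex, had 26839 and 31482, 38368 and 43571, 113608 and 110610, and 197835 and 206898 counts in the same order. Subunits of 1 complex thus lay far apart in every library. mt-Atp8 had 0, 1, 2 and 3 counts in the colon libraries and 35 to 51 in culture, mt-Nd3 had 1 to 4 and 7 to 23, and mt-Nd4l 0 to 2 and 17 to 30.

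**Figure D1:**
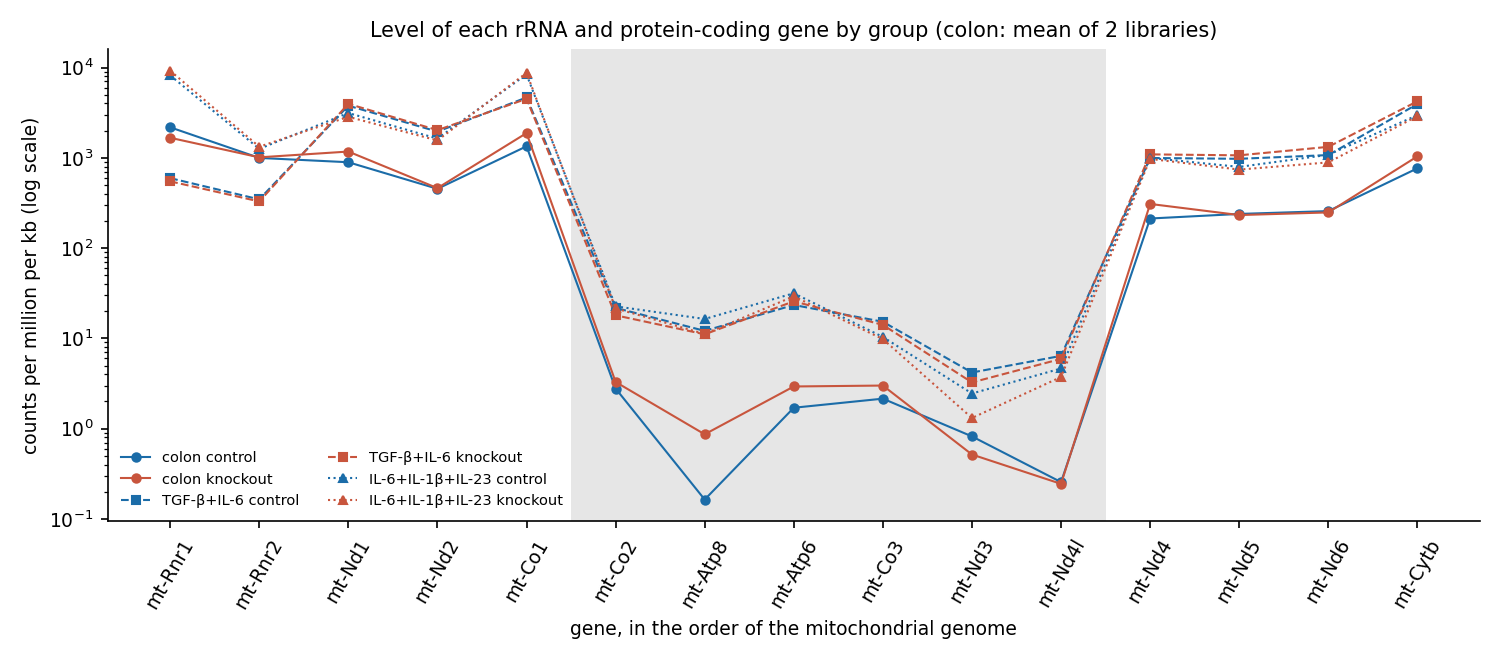
CPM per kb of gene length (on library totals, log axis) for the 2 rRNA and 13 protein-coding genes in genome order, by group, with colon points the mean of 2 libraries and culture points single libraries. In the grey band, which marks the 6 genes wholly inside the stretch copied to chromosome 1, levels run from 0 to 31.6, and outside it from 179 to 9221 in single libraries.

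The nuclear copies had counts of the same order as the genes they match: over all libraries mt-Co2 had 1008 counts and Gm28661 979, mt-Atp6 1252 and Gm10925 2121, mt-Co3 720 and Gm28437 1092, mt-Nd3 74 and Gm28438 85, and mt-Nd4l 100 and Gm10222 130. No library had more than 565 counts for any of these 5 copies. Where only part of the gene was copied the counts lay far apart. mt-Co1 had 769211 counts against 1470 for Gm29216, and mt-Nd4 107477 against 580 for Gm28439. Per kb of the whole gene, mt-Nd4 was at 179 to 360 CPM in the colon and 972 to 1091 in culture. The same counts divided by only the length outside the copied stretch gave 492 to 987 and 2668 to 2995 CPM per kb. Reads within that part were not counted separately, so these values take all mt-Nd4 reads as coming from it. The part of reads that match both places in these low counts was not tested. The 6 genes made up 0.0737% to 0.231% of protein-coding counts, so any sum over the class rests on the other 7 of its 13 genes.

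**Figure D2:**
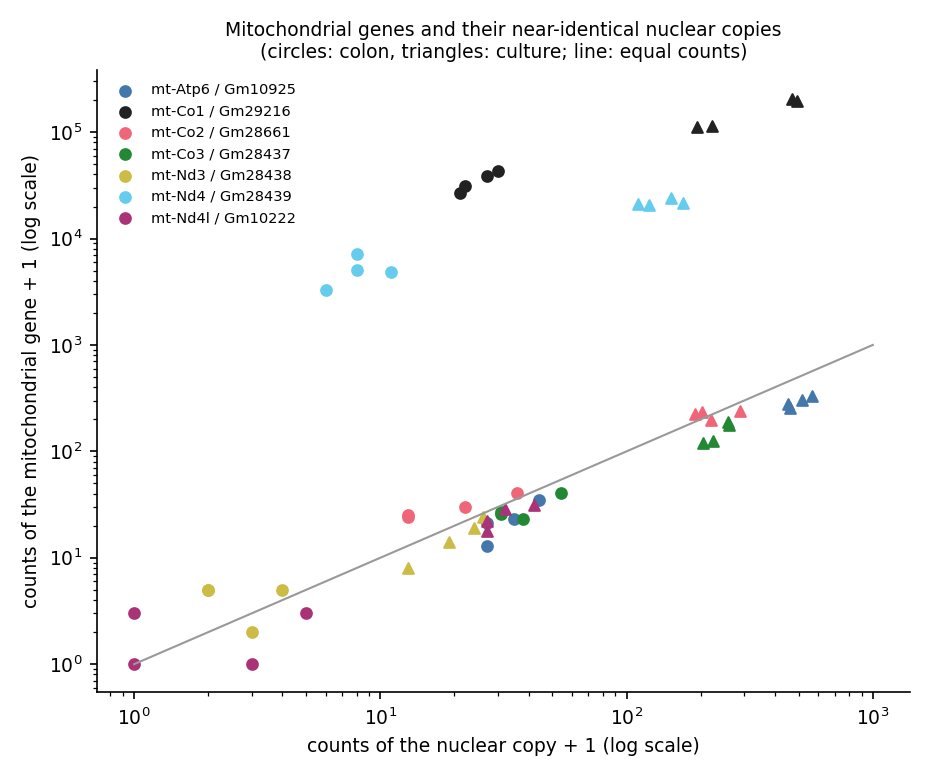
Counts plus 1 of each mitochondrial gene (vertical, log axis) against those of its near-identical nuclear copy (horizontal, log axis), 1 point per library, circles for colon and triangles for culture. The 5 genes copied almost in full lie near the line of equal counts, and mt-Co1 and mt-Nd4, copied in part, lie far above it.

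Among the 7 other protein-coding genes, levels per kb kept a similar order across libraries. In the colon controls mt-Co1 was highest at 1318 and 1361 CPM per kb, followed by mt-Nd1 at 875 and 911 and mt-Cytb at 727 and 803. mt-Nd2 followed at 414 and 492, then mt-Nd6 at 256 and 258, mt-Nd5 at 227 and 250 and mt-Nd4 at 179 and 246. Ranges of the last 2 overlapped. This last place of mt-Nd4 is per kb of the whole gene and was seen in the colon controls only. In the colon knockouts mt-Nd4 was at 257 and 360 CPM per kb against 226 and 239 for mt-Nd5. The TGF-β culture had 995 and 1091 against 974 and 1065, and the IL-23 culture 999 and 972 against 793 and 740. mt-Nd4 also lay above mt-Nd6 in colon knockout library 2 and in the IL-23 knockout. With all its counts divided by only the length outside the copied stretch, mt-Nd4 was at 492 and 675 CPM per kb in the colon controls. In the TGF-β culture mt-Co1 stood at 4655 and 4496 CPM per kb, mt-Cytb at 3940 and 4226 and mt-Nd1 at 3777 and 3959, so mt-Cytb and mt-Nd1 overlapped. The IL-23 culture set mt-Co1 apart, at 8395 and 8732 CPM per kb against 2969 and 2893 for mt-Cytb and 3136 and 2845 for mt-Nd1. mt-Nd6 is the sole protein gene on the opposite strand to the rest and shares 14 bases with mt-Nd5. The sources used here do not give whether counting used strand, so its reads cannot be told from those of RNA transcribed across it in the other direction.

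Counts of tRNA genes were few and came from a handful of them. The sequences of the leading proline tRNA, mt-Tp (chrM:15356-15422, minus strand), the leucine tRNA mt-Tl1 (chrM:2676-2750, plus strand) and the alanine tRNA mt-Ta (chrM:5018-5086, minus strand) are printed because the values below turn on them, with the phenylalanine tRNA mt-Tf (chrM:1-68, plus strand) as a gene without a count.
mt-Tp: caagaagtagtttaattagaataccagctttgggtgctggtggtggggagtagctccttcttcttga
mt-Tl1: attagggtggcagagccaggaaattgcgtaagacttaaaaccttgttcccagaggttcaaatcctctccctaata
mt-Ta: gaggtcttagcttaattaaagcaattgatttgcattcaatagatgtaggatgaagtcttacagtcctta
mt-Tf: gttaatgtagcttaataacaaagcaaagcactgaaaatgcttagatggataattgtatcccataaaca

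These genes are 59 to 75 bases long. Of the 22, 5 (mt-Tf, mt-Tw, mt-Td, mt-Tk and mt-Th, for phenylalanine, tryptophan, aspartate, lysine and histidine) had 0 counts in all 8 libraries, which allows up to 3 counts, or 0.188 to 0.228 CPM on library totals, in each. In all, 17 of 22 never exceeded 20 counts. mt-Tp, mt-Tl1, mt-Tc (cysteine), mt-Ta and mt-Te (glutamate) together held 93.7% of the 3407 tRNA counts. Of these 5 leading genes 4 lie on the minus strand, against 8 of the 22. Every minus-strand tRNA gene is crossed by the transcript of the plus strand, so the limit on strand given for mt-Nd6 holds for them too. mt-Tl1 is the exception among the leaders: it lies on the plus strand, directly between mt-Rnr2 and mt-Nd1 with no base between.

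As shares of library counts, the mitochondrial genes took 0.836% and 0.927% in the colon controls, 0.904% and 1.07% in the colon knockouts, 2.22% and 2.29% in the TGF-β culture and 3.43% and 3.53% in the IL-23 culture. Exact 95% binomial intervals, which cover counting error only, were 0.831% to 0.841% for the lowest and 3.52% to 3.54% for the highest. The classes moved separately. Protein-coding genes took 0.494% and 0.534% in the colon controls, 0.629% and 0.705% in the colon knockouts, and 2.11% to 2.45% in culture. rRNA took 0.340% and 0.391%, 0.273% and 0.365%, then 0.112% and 0.104% in the TGF-β culture and 0.981% and 1.09% in the IL-23 culture. tRNA never took more than 0.00422%. The cultures thus differed mainly in rRNA, and the colon differed from both in protein-coding genes.

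**Figure D3:**
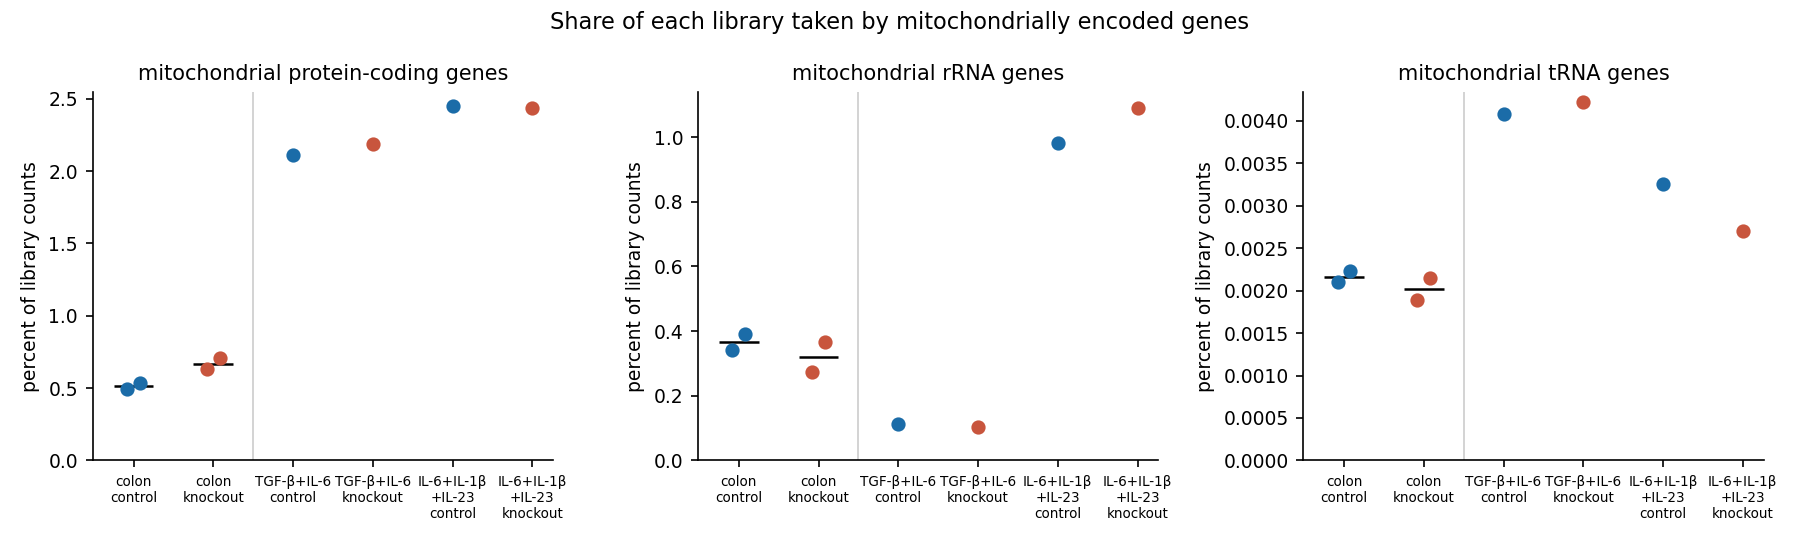
Percent of library counts taken by mitochondrial protein-coding, rRNA and tRNA genes, 1 point per library, with a line at the mean of the 2 colon libraries of a group and vertical axes from 0 that differ between panels. The rRNA share is 0.104% to 0.112% in the TGF-β culture and 0.981% to 1.09% in the IL-23 culture, and the protein-coding share is below 1% in the colon and above 2% in culture.

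The knockout was compared with the control in colon cells first. Of the 37 genes 17 passed the filter on low counts. The leucine tRNA mt-Tl1 and mt-Co1 rose, and mt-Rnr1, mt-Nd5, mt-Nd6 and mt-Tp fell, at a Benjamini-Hochberg adjusted p below 0.05 in edgeR's quasi-likelihood test. That is 2 of 17 higher, where 19.6% of the 13101 genes tested were called higher, and 4 of 17 lower, where 19.9% were called lower, so neither share stood far from the background. The median change of the 17 was -0.17 on the log2 scale, against 0.01 over all genes. At an unadjusted p below 0.05 the count was 10 of 17 (58.8%), against 48.1% of all genes.

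mt-Rnr1, the 12S rRNA, was at 2060 and 2385 CPM in the controls and at 1322 and 1653 in the knockouts. The groups did not overlap, and it fell by 0.58 ± 0.11 (SE) on the log2 scale, or 1.49-fold (adjusted p = 0.00165). mt-Rnr2, the 16S rRNA, overlapped at 1583 and 1789 CPM against 1238 and 1754 (log2 change -0.17 ± 0.13, adjusted p = 0.329). The ratio of the rRNAs, which does not depend on scaling, was 1.30 and 1.33 mt-Rnr1 counts per mt-Rnr2 count in the controls and 1.07 and 0.943 in the knockouts. Without knockout library 1 the fall of mt-Rnr1 was 0.45 (adjusted p = 2.45e-04) and without knockout library 2 it was 0.76 (adjusted p = 1.11e-08). mt-Rnr2 passed only without knockout library 2, at -0.46. Rn7sk, a nuclear RNA without a poly(A) tail, had 34 and 44 counts in the controls and 45 and 116 in the knockouts, so knockout library 2 stood apart in it too. Whether this bears on the rRNA values was not tested.

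mt-Tl1 had 13 and 14 counts in the controls and 54 and 40 in the knockouts, and the groups did not overlap. It was 3.03-fold higher (log2 change 1.60 ± 0.32, adjusted p = 0.00233), and its call held without each library in turn, with log2 changes of 1.30 to 1.82. The neighbouring genes on the same strand did not share this size: mt-Nd1 just downstream changed by 0.20 ± 0.08 (adjusted p = 0.0786), and mt-Rnr2 just upstream by the -0.17 given above. mt-Tp moved the other way, with 88 and 100 counts against 66 and 77 (7.15 and 7.14 CPM against 4.49 and 4.97). It fell by 0.59 ± 0.18 (adjusted p = 0.0208), a call lost without knockout library 1 (adjusted p = 0.0607), in DESeq2 (0.137) and with library totals (0.0933). mt-Ta (-0.61, adjusted p = 0.0810), mt-Tc (-0.36, 0.148) and mt-Te (-0.42, 0.341) were not called. Thus mt-Tl1 made up 4.71% and 4.20% of tRNA counts in the controls and 20.7% and 12.9% in the knockouts.

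In the protein-coding class, mt-Co1 was at 2179 and 2247 CPM against 2612 and 2814 and rose by 0.29 ± 0.08 on the log2 scale (adjusted p = 0.0112). The call was lost without control library 1 (adjusted p = 0.0521) and without knockout library 2 (0.0905). The complex I genes mt-Nd5 (444 and 488 CPM against 386 and 406) and mt-Nd6 (142 and 143 against 127 and 114) fell by 0.23 ± 0.08 and 0.24 ± 0.08 (adjusted p = 0.0377 for each). Neither held throughout. mt-Nd5 was lost without control library 2 (adjusted p = 0.219) or knockout library 1 (0.0897). mt-Nd6 was lost without control library 1 (0.0743), control library 2 (0.0859) or knockout library 2 (0.221), and in DESeq2 (0.0638). The other complex I genes with many counts were not called: mt-Nd1 as above, mt-Nd2 -0.17 (adjusted p = 0.167) and mt-Nd4 0.34 (0.103), nor was mt-Cytb at 0.25 (0.0558).

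Scaling changed several of these calls in the colon. TMM factors were 0.935 and 0.936 for the controls and 1.07 for both knockouts. With library totals alone the median change of all genes went from 0.01 to 0.21 on the log2 scale, and calls over all genes from 2566 higher and 2607 lower to 4284 higher and 1262 lower (32.7% and 9.63%). Under that scaling mt-Co1, mt-Tl1, mt-Cytb (0.44), mt-Nd1 (0.39) and mt-Nd4 (0.54) were higher, mt-Rnr1 alone was lower (-0.39, adjusted p = 0.0168), and mt-Nd5 (-0.04, adjusted p = 0.706), mt-Nd6 (-0.05, 0.659) and mt-Tp were not called. The number of members called also moved with single libraries. It was 1 higher and 5 lower without control library 1 or without knockout library 2, 4 higher and 2 lower without control library 2, and 5 higher and 2 lower without knockout library 1.

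For 4 shares of library counts and 12 ratios within the mitochondrial counts, of which only the ratios do not depend on scaling, the colon groups were compared by a two-sided exact permutation test, which with 2 against 2 cannot give a p below 0.333 (0.533 after Benjamini-Hochberg adjustment over the 16). Counts of rRNA per protein-coding count were 0.690 and 0.732 in the controls and 0.434 and 0.518 in the knockouts. Counts of tRNA per 1000 protein-coding counts were 4.24 and 4.17 against 3.01 and 3.04. Complex I genes made up 41.8% and 43.3% of protein-coding counts against 38.4% and 38.9%, complex IV genes 41.3% and 39.5% against 44.3% and 42.8%, and complex III, which is mt-Cytb alone, 16.8% and 17.2% against 17.3% and 18.2%. mt-Nd6 made up 2.69% and 2.51% against 2.15% and 1.73%. None of these pairs of groups overlapped, and each stood at the smallest p the test can give. The same held for mt-Rnr1 per mt-Rnr2, the share of mt-Tl1 and that of minus-strand genes in tRNA counts, and the protein-coding share of the library. The colon groups overlapped in mt-Co1 per mt-Cytb count (2.45 and 2.29 against 2.56 and 2.34), in the complex V percent and in that of the 6 genes of the copied stretch. The protein-coding share of library counts averaged 0.514% ± 0.0284 (SD, n = 2) in the controls and 0.667% ± 0.0537 (SD, n = 2) in the knockouts, a ratio of 1.30 that was 1.14 when set against TMM-scaled library sizes. The all-gene mitochondrial share, the rRNA share and the tRNA share overlapped between the colon groups.

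**Figure D4:**
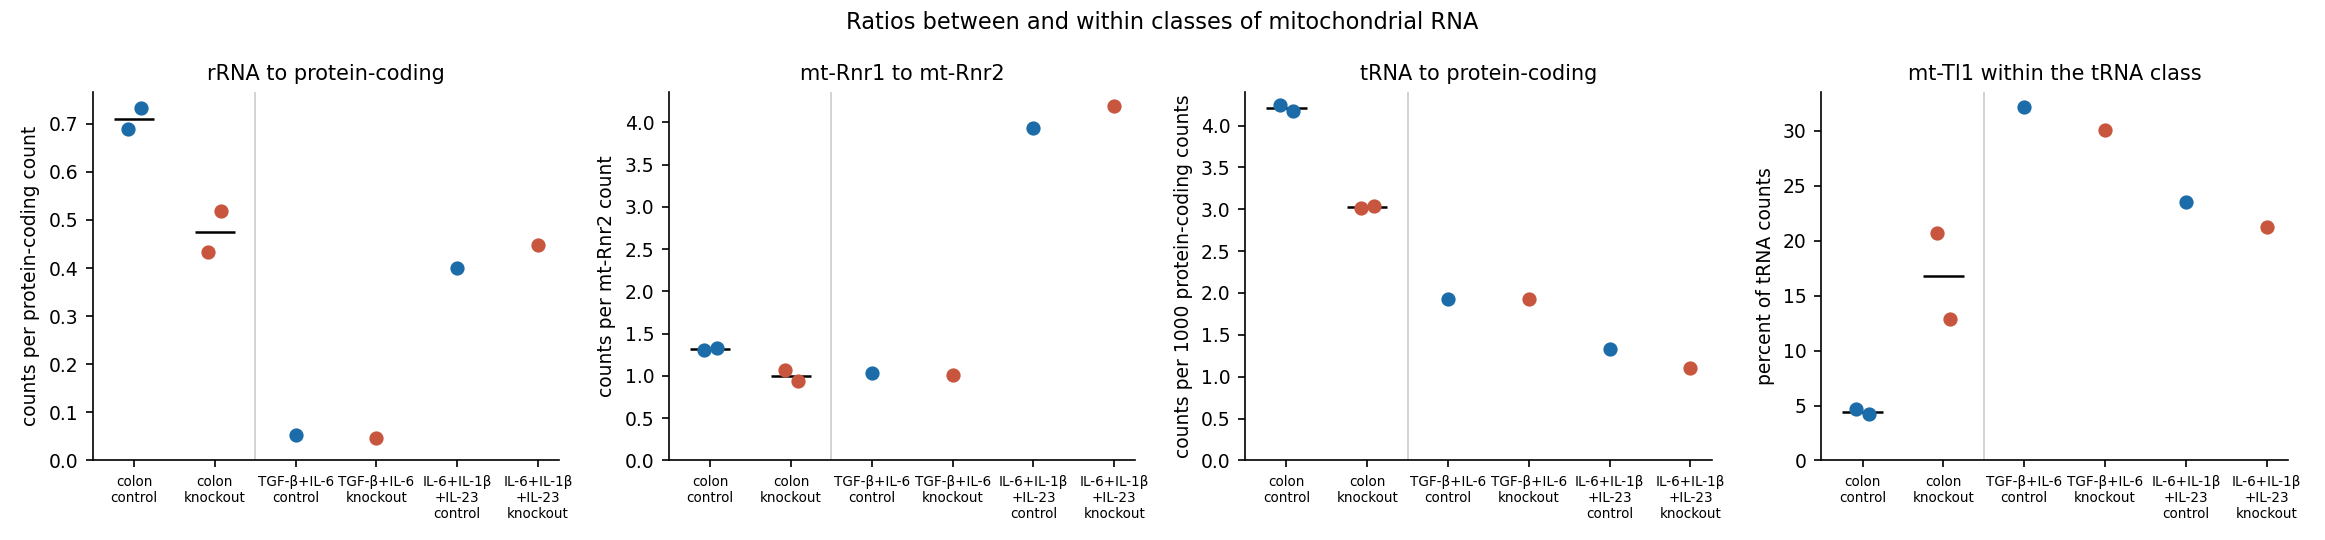
Counts of rRNA per protein-coding count, of mt-Rnr1 per mt-Rnr2 count, of tRNA per 1000 protein-coding counts, and mt-Tl1 as percent of tRNA counts, 1 point per library with lines at colon means and axes from 0. The colon groups do not overlap in any of the 4, and mt-Rnr1 per mt-Rnr2 is 3.94 and 4.20 in the IL-23 culture and 0.943 to 1.33 elsewhere.

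In culture no mitochondrial gene was called between the genotypes. Of 21 tested, 0 were higher and 0 lower, where 0.0143% of the 13983 genes tested were called in each direction. None had an unadjusted p below 0.05 in edgeR, against 3.58% of all genes, and DESeq2 called 0 as well. The log2 change of mt-Rnr1 was 0.02 ± 0.08, of mt-Rnr2 -0.00 ± 0.07, of mt-Co1 -0.00 ± 0.07, of mt-Cytb 0.03 ± 0.07 and of mt-Nd5 0.01 ± 0.08. mt-Tl1 had 207 and 202 counts in the TGF-β culture and 117 and 88 in the IL-23 culture (log2 change -0.20 ± 0.15). Here the 2 cytokine mixes stand in for replicates, which leaves 1 residual degree of freedom, so a difference in 1 mix alone would enlarge its error. mt-Nd6 is such a gene: 556 and 685 CPM in the TGF-β culture and 562 and 461 in the IL-23 culture, higher in the knockout of the former and lower in that of the latter. With 1 library each, those opposite differences have no test.

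The knockout effect in the colon minus that in culture was then fitted over all 8 libraries. mt-Tl1 differed by 1.81 ± 0.36 on the log2 scale (adjusted p = 0.00383) and mt-Rnr1 by -0.61 ± 0.16 (adjusted p = 0.0155). That is 1 of 21 members higher and 1 of 21 lower, against 7.71% and 9.55% of the 14957 genes tested. The difference of mt-Tl1 was called without each colon library in turn (1.53 to 2.04). That of mt-Rnr1 was not called without knockout library 1 (-0.46, adjusted p = 0.0504) or with library totals (-0.41, adjusted p = 0.0820). With library totals 4 members were higher, mt-Tl1, mt-Co1, mt-Cytb and mt-Nd1, and 0 lower, against 15.2% and 3.8% of all genes under that scaling. mt-Co1 (0.29, adjusted p = 0.0922), mt-Nd5 (-0.25, 0.178) and mt-Nd6 (-0.25, 0.306) were not called.

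**Figure D5:**
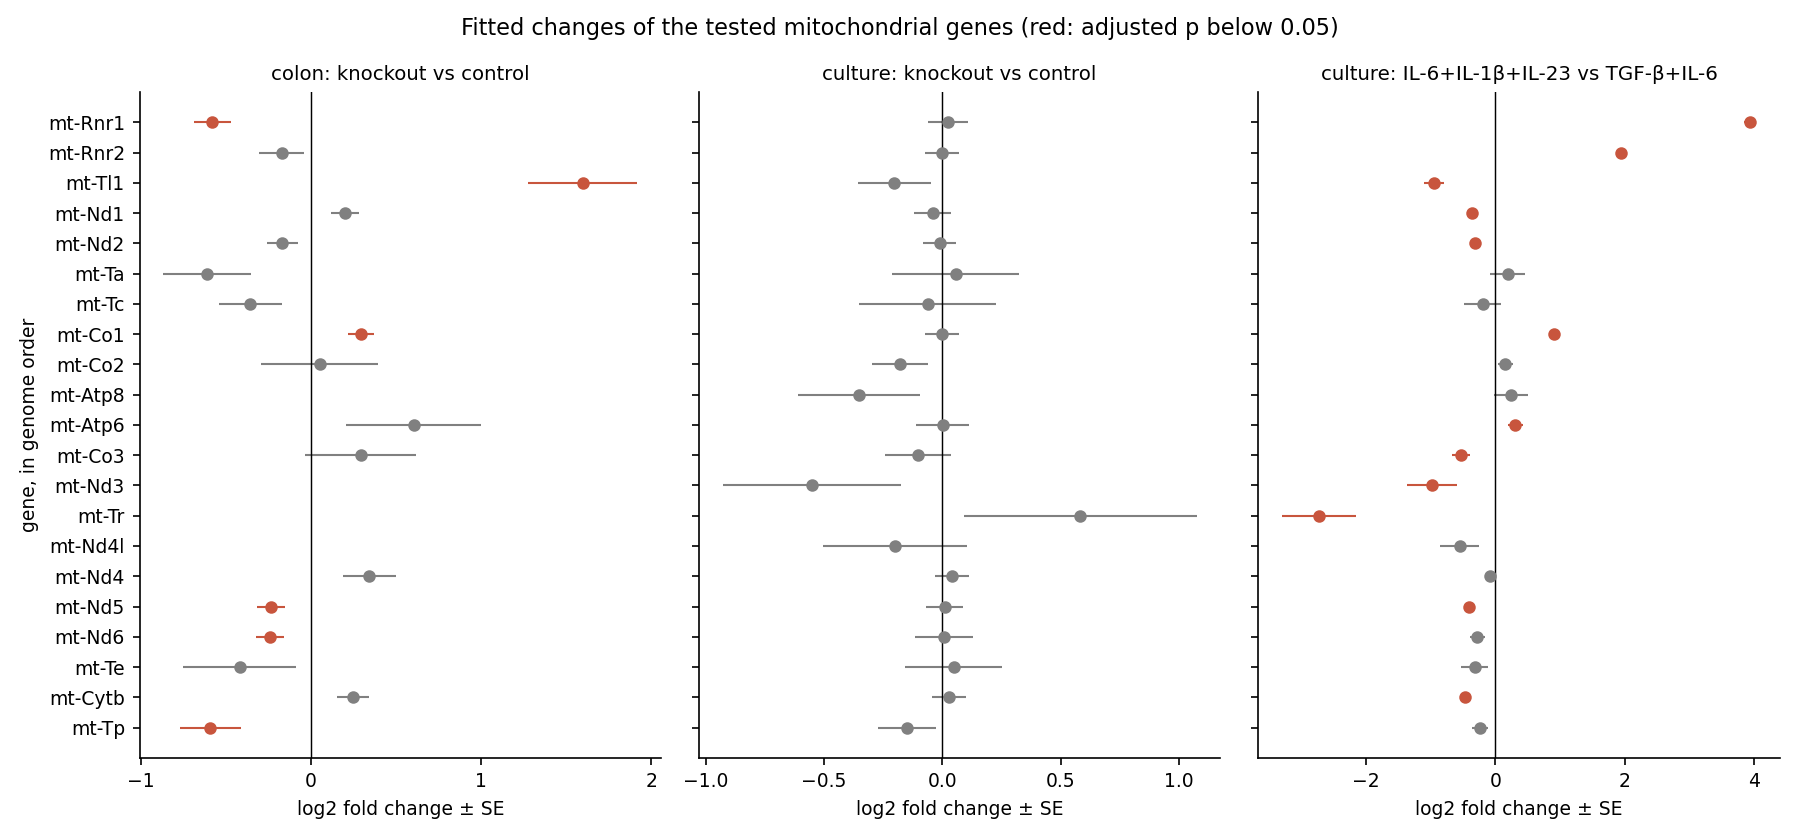
Log2 fold change with its standard error (horizontal, a scale of its own in each panel) for each tested mitochondrial gene in genome order, for the knockout in colon cells, the knockout in culture and the cytokine mixes in culture, with red for adjusted p below 0.05. Red points number 6, 0 and 12, and mt-Rnr1 and mt-Rnr2 at 3.93 and 1.94 stand apart in the third panel.

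The cytokine mixes differed most in rRNA. In the IL-23 culture both rRNAs and mt-Co1 were higher than in the TGF-β culture, and mt-Cytb, mt-Nd1, mt-Nd2 and mt-Nd5 were lower. Of 21 genes tested 4 were higher and 8 lower, where 35.8% of all genes were called higher and 34% lower (19.0% and 38.1% of the members). Each mix had 1 library per genotype, the genotypes stood in for replicates, and the mix cannot be told apart from any difference in how its 2 libraries were prepared.

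mt-Rnr1 was at 568 and 523 CPM in the TGF-β culture and at 7852 and 8792 in the IL-23 culture. It was 15.2-fold higher (log2 change 3.93 ± 0.09, adjusted p = 3.22e-08). mt-Rnr2 was at 548 and 519 CPM against 1994 and 2095, or 3.84-fold higher (1.94 ± 0.07, adjusted p = 2.19e-07). Both genotypes showed the same order, with no overlap. The rRNAs did not rise equally: the ratio of mt-Rnr1 to mt-Rnr2 counts went from 1.04 and 1.01 to 3.94 and 4.20. Counts of rRNA per protein-coding count went from 0.0529 and 0.0477 to 0.400 and 0.448. Nuclear RNAs of kinds that often lack poly(A) tails, looked up after these values were seen, did not move as one. Whether each histone gene counted here, Hist1h1c included, lacks a tail was not checked. Rn7sk, the RNA of the 7SK complex, had 13 and 18 counts in the TGF-β culture and 11 and 9 in the IL-23 culture. Genes whose symbols begin with Hist summed to 21.8 and 18.4 CPM on library totals against 41.5 and 38.5. Of these sums Hist1h1c alone made 2.72 and 1.26 CPM against 22.4 and 18.8 (43 and 20 counts against 341 and 289). The difference in the sum was thus about that of Hist1h1c alone. Whether RNA selection had a part in the rRNA values was not tested.

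Among protein-coding genes, mt-Co1 rose 1.88-fold, from 7188 and 6933 CPM to 13023 and 13468 (log2 change 0.91 ± 0.07, adjusted p = 8.96e-06). mt-Cytb fell by 0.47 ± 0.07 (4505 and 4825 CPM to 3411 and 3304, adjusted p = 4.39e-04). The complex I genes mt-Nd1, mt-Nd2 and mt-Nd5 fell by 0.37, 0.32 and 0.41 (adjusted p = 0.00265, 0.00367 and 0.00161). mt-Nd4 (-0.08, adjusted p = 0.365) and mt-Nd6 (-0.28, 0.0714) were not called, and mt-Nd6 was called lower with DESeq2 size factors (0.0292) or library totals (0.0417). Complex IV genes thereby made up 34.2% and 31.9% of protein-coding counts in the TGF-β culture and 53.1% and 55.5% in the IL-23 culture, and complex I genes 44.3% and 45.9% against 33.0% and 30.8%. mt-Co1 counts per mt-Cytb count were 1.60 and 1.44 against 3.82 and 4.08. Complex IV is here mt-Co1 almost alone, given the low counts of mt-Co2 and mt-Co3.

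Genes of that stretch and the tRNAs rested on few counts. mt-Atp6 was called higher (0.31, adjusted p = 0.0353), and mt-Co3 (-0.54, 0.00848), mt-Nd3 (-0.98, 0.0471) and mt-Tr, the arginine tRNA (-2.72, 0.00278), lower. DESeq2 called none of these 4 (adjusted p = 0.302, 0.148, 0.402 and 0.0987), so its counts were 3 higher and 5 lower. mt-Tr had 11 and 18 counts against 2 and 2. mt-Tl1 fell by 0.95 ± 0.16 (13.1 and 12.7 CPM to 7.70 and 5.73, adjusted p = 7.06e-04) and was called in every alternative fit run. mt-Tp (15.0 and 14.3 CPM against 13.4 and 11.4) was not called at -0.24 (adjusted p = 0.108).

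Colon cells had lower levels of mitochondrial mRNA than cultured cells. Of 21 genes tested 3 were higher in the colon and 17 lower, where 40.9% of 14957 genes were called higher and 40.5% lower. That is 14.3% of members higher and 81% lower. The median change of the members was -1.69 on the log2 scale, against -0.01 over all genes. All 13 protein-coding genes were lower, from -1.46 ± 0.06 for mt-Nd1 to -4.58 ± 0.42 for mt-Atp8, with mt-Co1 at -1.71 ± 0.06, mt-Cytb at -1.69 ± 0.07 and mt-Nd6 at -1.83 ± 0.08. In CPM per kb, mt-Cytb lay at 727 to 1125 in the colon and 2893 to 4226 in culture, without overlap. Markers of other cells were higher in the colon in the same fit, with 7 of 7 tested B and plasma cell markers (median 6.41 on the log2 scale), 8 of 9 macrophage (6.30), 7 of 8 fibroblast (4.72), 3 of 3 endothelial (5.36) and 9 of 10 epithelial markers (3.66), and so were 10 of 12 T cell markers (1.09). Their part in the mitochondrial values was not tested. Source of the cells, annotation of the files and any batch go together in this comparison and cannot be told apart.

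The rRNA and tRNA genes did not follow the mRNAs. mt-Rnr2 was higher in the colon by 0.88 ± 0.09 (adjusted p = 2.05e-07), and so were mt-Ta by 1.05 ± 0.20 (2.07e-04) and mt-Tc by 1.08 ± 0.17 (2.93e-05). mt-Rnr1 was not called (0.04 ± 0.08, adjusted p = 0.611), and its colon level, 1475 to 2338 CPM per kb, lay between those of the mixes, 548 and 595 and then 8189 and 9221. With library totals, which moved the median of all genes to -0.29, mt-Rnr1 was called lower (-0.23, adjusted p = 0.0135). mt-Rnr2 likewise lay between, at 834 to 1189 CPM per kb against 328 and 346 and then 1255 and 1326. The colon average is thus set against 2 unlike cultures. mt-Tl1 (-2.10 ± 0.17), mt-Tp (-0.94 ± 0.11) and mt-Te (-1.12 ± 0.19) were lower. mt-Tr was called lower (-1.62, adjusted p = 0.0461), a call lost without any 1 of the 4 colon libraries (adjusted p = 0.0695 to 0.117). Minus-strand genes made up 92.8% and 93.4% of tRNA counts in the colon controls, 77.8% and 83.2% in the colon knockouts, and 62.6% to 76.3% in culture. Rn7sk was at 2.58 and 2.94 CPM on library totals in the colon controls, 3.27 and 8.03 in the colon knockouts and 0.587 to 1.13 in culture. Hist genes summed to 42.04 to 46.95 CPM in the colon, 21.8 and 18.4 in the TGF-β culture and 41.5 and 38.5 in the IL-23 culture. Whether RNA selection had a part in the rRNA and tRNA values was not tested.

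Nuclear genes that keep and express the mitochondrial genome were described beside its own genes. In the colon knockout, 7 of 30 genes of mitochondrial DNA upkeep and transcription were higher and 1 lower (median 0.12 on the log2 scale, all genes 0.01), where 19.6% and 19.9% of all genes were called. Tfam, which packages and helps transcribe the mitochondrial genome, was at 40.8 and 46.2 CPM against 48.7 and 58.6 (0.30 ± 0.11, adjusted p = 0.0482). Slc25a36, a mitochondrial pyrimidine nucleotide carrier, was higher by 0.57 (0.00916), and Mrpl12, a mitochondrial ribosomal protein that binds the polymerase, fell by 0.54 (0.00310). Polrmt (-0.04, adjusted p = 0.831), Polg, the polymerase that copies the genome (0.18, 0.175), the helicase Twnk (-0.25, 0.210) and Tfb2m (0.44, 0.0744) were not called. DESeq2 called 1 of these 30 higher and 1 lower, library totals 12 and 1, and without control library 1 or knockout library 2 it was 2 and 2. Without control library 2 it was 4 and 1.

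Of 39 tested genes of mitochondrial RNA processing, stability and decay, 5 were higher and 7 lower in the colon knockout (median -0.02). Over all genes 19.6% were called higher and 19.9% lower. Lrpprc, which stabilises mitochondrial mRNAs, was higher by 0.39 ± 0.12 (adjusted p = 0.0285). Trnt1, which adds the CCA end to tRNAs, was higher by 0.49 (0.00303) and Ptcd3, of the mitochondrial ribosome, by 0.58 (0.00311). Hsd17b10, a subunit of the enzyme that cuts the 5′ ends of mitochondrial tRNAs, fell by 0.76 (1.03e-04). Elac2, which cuts the 3′ ends, was not called (0.09, adjusted p = 0.430), nor was Slirp, the partner of Lrpprc (0.08, 0.931), at 0.24 to 1.21 CPM. With library totals 12 were higher and 1 lower, in DESeq2 2 and 4, without control library 2 it was 3 and 2, and without knockout library 2 it was 2 and 4. Of 10 regulators of mitochondrial biogenesis 2 were higher and 2 lower, with 1 higher without control library 1 and 0 without knockout library 2. Gabpa, a transcription factor of nuclear respiratory genes, was higher by 0.31 (0.0140) and Sirt1, a deacetylase, by 0.48 (0.00526). Myc fell by 0.70 (4.37e-05) and Pprc1, a coactivator, by 0.36 (0.00334). Nrf1 (-0.23, adjusted p = 0.0639) and Ppargc1b (0.46, 0.167) were not called, and Ppargc1a had at most 2 counts in any library.

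Most nuclear subunits of complexes I, III, IV and V that were tested were lower in the colon knockout. Among the mitochondrial subunits, mt-Nd5 and mt-Nd6 of complex I were lower, mt-Co1 of complex IV was higher, and none of complex III or V was called. Over all genes 19.9% were called lower and 19.6% higher. Of 36 nuclear complex I genes 26 were lower and 1 higher (median -0.40), with Ndufv3 at -0.84 ± 0.10 (adjusted p = 9.78e-05). Of 4 complex II genes 2 were lower, with Sdhb at -0.57 (2.11e-04), and of 9 complex III genes 7 were lower (median -0.54), with Uqcr10 at -0.70 (1.94e-04). Complex IV had 6 of 11 lower (median -0.28), with Cox4i1 at -0.90 (1.18e-05), and ATP synthase 12 of 16 (median -0.51), with Atp5h at -0.75 (3.49e-05). Complexes II to V had no member called higher. With library totals the counts lower were 17, 1, 6, 3 and 9, with 1 complex I and 1 ATP synthase gene higher, while all 5 medians stayed below 0. Under that scaling 9.63% of all genes were called lower and 32.7% higher. Of 12 T cell markers 10 were lower in the same comparison (median -0.32) and 5 with library totals (median -0.13), and 1 was called higher under either scaling. Cd28 was at 261 and 299 CPM in the controls and at 321 and 344 in the knockouts. Markers of other cells were higher, as given above. The lists of mitochondrial and nuclear subunits were not tested against each other, and fewer T cells and less RNA per T cell cannot be told apart in bulk RNA.

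In culture none of these nuclear genes was called for genotype. Between the mixes, 7 of 30 upkeep genes were higher and 13 lower in the IL-23 culture, and 2 of 39 RNA processing genes were higher and 23 lower (median -0.41, all genes 0.02). Over all genes 35.8% were called higher and 34% lower, to set beside these counts and those of the complexes below. Lrpprc fell from 126 and 132 CPM to 54.1 and 52.3 (-1.28 ± 0.07, adjusted p = 1.68e-06). Polrmt fell by 0.76, Tfam by 0.48, Twnk by 0.88, Elac2 by 0.89, Nrf1 by 0.76 and Ppargc1b by 2.42. Fastkd1, of a family that acts on mitochondrial RNA, fell by 1.99, the DNA ligase Lig3 by 1.46 and Atad3a, of the mitochondrial inner membrane, by 1.03. Against these, Hsd17b10 rose by 1.99, the primase Primpol by 1.17, Slc25a36 by 0.81 and Prkaa1, a catalytic subunit of AMP-activated kinase, by 0.58. The 12S and 16S rRNAs and mt-Co1 were higher in the same libraries in which most called genes of mitochondrial RNA processing were lower. The nuclear complexes were mixed, with 14 of 36 complex I genes higher and 10 lower, 1 and 2 of 4 for complex II, 2 and 3 of 9 for complex III, 6 and 2 of 11 for complex IV and 7 and 7 of 16 for ATP synthase. DESeq2 called 9 and 4 for complex I, and 4 lower for ATP synthase and 4 higher among upkeep genes (all genes 24.9% higher and 25.3% lower). Ndufv3 had the smallest p for complex I at 1.72, Sdhb for complex II at -0.28, Uqcrh for complex III at 0.71, Ndufa4 for complex IV at -0.76 and Atp5g1 for ATP synthase at -0.82. Markers of other cells also moved with the mix. Fibroblast markers summed to 2.03 and 2.38 CPM in the TGF-β culture against 447 and 411 in the IL-23 culture (3 of 3 tested higher), of which Lum alone was 422 and 387 CPM, while Col3a1 was at 0 in all cultures. Macrophage markers summed to 2.28 and 2.57 CPM against 35 and 33.3 (2 of 2 tested higher, with C1qa, C1qb, C1qc, Lyz2 and Fcgr1 at 0 in all cultures). Endothelial markers summed to 14.7 and 17.8 against 64.6 and 71.7 (1 of 1, with Tek and Emcn at 0), and neutrophil markers to 0 and 0.0627 against 6.32 and 6.44 (1 of 1, with 5 of the 6 at 0). Single genes made most of these sums too. Cd68 was at 2.15 and 2.19 CPM against 30.5 and 27.3, and Pecam1 at 14.6 and 17.7 against 64.2 and 71.1. Cxcr2 made the whole neutrophil sum. Epithelial markers (20.9 and 19.9 CPM against 24.8 and 25.9) had 3 of 4 higher and 1 lower, and B and plasma cell markers (13.9 and 15.9 against 20.5 and 18.8) 1 of 2 in each direction. Their part in the mitochondrial values was not tested.

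Between colon and culture, where mitochondrial mRNAs were lower in the colon, nuclear genes of complexes I, III, IV and V were mostly higher. Complex I had 25 of 36 higher and 6 lower (median 0.52), and complex III 7 and 2 of 9. Complex IV had 9 and 1 of 11, and ATP synthase 9 and 4 of 15. Complex II had 1 of 4 higher and 0 lower (median 0.085). Over all genes 40.9% were called higher and 40.5% lower. With library totals, complex I had 11 lower, complex III 4 higher, and upkeep 4 higher (all genes 32.6% higher and 49.1% lower). Cox4i1 was higher by 1.26 ± 0.06 and Uqcrc1 by 1.19 ± 0.05 in the colon. The upkeep genes were 9 higher and 14 lower of 30, and the RNA processing genes 13 and 15 of 39. Lrpprc (-1.52 ± 0.07), Tfb2m (-1.08 ± 0.11), Twnk (-0.97 ± 0.10) and Elac2 (-0.66 ± 0.06) were lower in the colon, as were Rexo2, an oligoribonuclease (-1.78), Grsf1, an RNA-binding protein of mitochondrial RNA granules (-1.45), and Ptcd3 (-1.49). Nrf1 (0.98 ± 0.06), Polrmt (0.49 ± 0.08), Mrm1, which methylates the 16S rRNA (1.25), the thymidine kinase Tk2 (1.29) and the carrier Slc25a33 (1.41) were higher, and Tfam was not called (0.04, adjusted p = 0.665).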

How the data were processed

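The deposited files hold the authors' raw counts of reads per gene, 1 file per library, as whole numbers that carry no scaling, per the file headers. The submitters' processing notes name Trim Galore, Bowtie2, featureCounts, edgeR and DESeq2 and the build mm10, without versions or roles. The mitochondrial genes and the gene lists were chosen with earlier results of these data known.

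Of 54446 identifiers in the colon files 54409 matched GENCODE M21, as did 55315 of 55341 symbols in the culture files, and 54185 genes were joined by symbol for fits over all 8 libraries. Entries whose symbol had turned into a date (0.174% to 0.269% of counts in a library) were left out of that join. Nuclear copies were pseudogene transcripts matching a mitochondrial gene over at least 100 bases at 90% identity or more, and were called near-identical from 99%.

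All genes were fitted with edgeR 4.0.16 in R 4.3.3: filterByExpr, TMM scaling and the quasi-likelihood test, with Benjamini-Hochberg adjustment over all genes tested and a threshold of 0.05. The colon fit held genotype (2 against 2). The culture fit held cytokine mix and genotype (1 residual degree of freedom), with 1 library for each combination. A fit over all 8 libraries held separate genotype terms for colon and culture. Every adjusted p in the text is from edgeR unless DESeq2 is named. SE is the standard error of the log2 change. Procedures were tested on simulated counts. Alternatives were library totals, DESeq2 size factors, scaling from nuclear genes only, no filter, the DESeq2 1.42.0 Wald test, all 8 libraries in the fit, leaving out each colon library, and a replicate block. Shares and ratios were also taken over nuclear counts, over TMM-scaled sizes, per kb, and without mt-Atp8 and mt-Nd4l. Adding the counts of the nuclear copies, and using only the 5 protein-coding genes with no part in the copied stretch, were chosen after seeing the data.

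Any mitochondrial gene could be named. Of the nuclear lists, 12 genes were always named where measured, with the 4 of smallest p per direction in each comparison, and for each respiratory complex the gene of smallest p. Colon libraries of 1 group differed beyond sampling noise (chi-square per gene 6.85 and 5.03), so each was counted. The labels do not say that libraries came from separate animals, so the spread behind each p-value is that of these libraries and may be technical. Binomial intervals (exact, 95%) and the limit of 3 counts for a 0 cover counting error only.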

Additional observations from a re-analysis of the deposited data

Results flagged for a closer look

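For 2 mitochondrial genes the knockout effect in colon cells differed from that in cultured cells by a test of the difference itself, fitted over all 8 libraries with edgeR. The leucine tRNA mt-Tl1 changed by 1.60 on the log2 scale in the colon knockouts and by -0.20 in culture, and these differed by 1.81 on the log2 scale (adjusted p = 0.00383). The 12S rRNA mt-Rnr1 changed by -0.58 in the colon and 0.02 in culture, and these differed by -0.61 (adjusted p = 0.0155), a call lost without knockout library 1 (adjusted p = 0.0504) and with library totals (0.0820).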

How the results depend on the processing

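Over all settings, 830 values for single genes kept their direction and side of the threshold, 30 passed it only in the alternative, 30 only in the reported fit and 23 changed sign. For counts, shares and ratios, 148 stayed close to the reported value and 24 moved. In the colon, members called higher numbered 5 with library totals, 4 without the filter and 1 to 5 when a library was left out, and members called lower 1 with library totals, 2 in DESeq2 and 2 to 5. With a replicate block the counts were 5 and 7 (29.4% and 41.2% of members, against 23.4% and 24.2% of all genes). The deviations of libraries with the same number correlated at 0.153 across genes, over only 2 pairs. The common coefficient of variation between libraries in edgeR was 7.48% without the block and 5.24% with it. Nothing in the labels ties the numbers to animals or days. Whether the numbers pair the libraries therefore cannot be told, and the reported fit did not pair them. Between mixes DESeq2 called 5 lower. For the difference of knockout effects, higher calls were 4 with library totals, 2 in DESeq2 and 1 to 2 with a library left out, and lower calls 0 with library totals and 0 to 2. Against TMM-scaled sizes the knockout-to-control ratio in the colon was 1.14 for the protein-coding share and 0.818 for the tRNA share, and 0.988 for the protein-coding share in the IL-23 culture. With 5 protein-coding genes only it was 0.775 for tRNA per protein-coding count and 0.943 for complex I.

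With library totals, the log2 change in the colon was 0.0246 for mt-Nd2 and 0.0213 for mt-Rnr2, the genotype change in culture 0.003366 for mt-Co1 and 0.002622 for mt-Rnr2, the difference of effects 0.0313 for mt-Nd2 and 0.0191 for mt-Rnr2, and colon against culture -0.23 for mt-Rnr1. The genotype change of mt-Atp6 in culture was -0.001202 with DESeq2 size factors, -0.005397 without the filter and -0.0593 with nuclear copies added, and the difference of effects for mt-Nd3 was 0.24 with copies added. Leaving out 1 colon library gave -0.46 to 0.42 for mt-Co2, -0.11 to 0.59 for mt-Co3 and -0.457 to 0.0357 for mt-Rnr2 in the colon. For the difference of effects it gave -0.27 to 0.60 for mt-Co2, -1.56 to 0.39 for mt-Nd3, -3.29 to 3.53 for mt-Nd4l, -0.452 to 0.0504 for mt-Rnr2 and -0.73 to 0.13 for mt-Tr, and for colon against culture -0.0280 to 0.125 for mt-Rnr1. The cause of these changes was not tested.

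Culture groups had 1 library each, and no library was left out there. Depth limits the tRNAs, of which 17 of 22 never exceeded 20 counts, and the 6 genes of the copied stretch.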
